A study of Sus scrofa with 12 samples.

Results

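Cytosolic ribosomal protein genes were taken as every gene whose deposited symbol is RPL or RPS followed by digits and at most 1 of the letters A, L, X or Y, together with RPLP0, RPLP1, RPLP2 and RPSA. This gave 86 gene identifiers under 74 symbols, out of 11422 genes with a peak, and all 86 were also in the FPKM table. By role they were 36 small subunit, 47 large subunit and 3 stalk identifiers. For 11 symbols the files list several identifiers; the one with the highest FPKM keeps the plain symbol here, and the others carry their chromosome (RPS24-chr11). RPS4Y1, RPS14, RPS26, RPL10L, RPL17, RPL36, RPL39L and RPL41 were not analysed here.

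The study measured RNA by m6A-methylated RNA immunoprecipitation sequencing (MeRIP-seq) in IPEC-J2, a wild-type pig epithelial cell line of the jejunum. In this assay RNA is cut into fragments, part is pulled down with an antibody to N6-methyladenosine (m6A), and part is kept as input. Cells received 0 µM (CON) or 25 µM (OAA) of OAA for 24 h, and the series title names 2-oxindole-3-acetic acid; both groups were grown in DMEM/F12 with serum. Each of the 2 treatments has 3 libraries labelled IP and 3 labelled input, 12 libraries in all. Nothing states that the replicates were separate cultures, and so the spread that p-values are measured against may be technical.

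Library codes in the files and sample labels contradict each other on which fraction met the antibody, and the labels were followed. The peak ratio is the log2 of signal labelled input over signal labelled IP, the way round of the authors' deposited log2 ratios. Read by the titles, a negative ratio is antibody enrichment; read by the codes, it is depletion. The FPKM columns match the libraries labelled IP by code, so FPKM levels and labelled IP peak counts are not independent measurements.

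The cytosolic ribosome is built of a small subunit, which reads the mRNA, and a large subunit, which forms peptide bonds, with a stalk that recruits the elongation factors. Its protein genes are expressed at high levels in growing cells, and their mRNAs are short and mostly begin with a 5′ terminal oligopyrimidine tract that ties their translation to growth signals. m6A is a common internal mRNA modification, known for clustering near stop codons and in long exons.

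Total counts in peaks were 16.5 M to 23.0 M in the libraries labelled input and 3.71 M to 4.61 M in those labelled IP. Of 10 epithelial markers listed, 9 were measured and 6 had at least 1 FPKM, including EPCAM at 196 and KRT8 at 396 FPKM; of the enterocyte markers, SI had 12.8 FPKM and VIL1, CDX2 and FABP2 were below 1. The summed FPKM of the epithelial list ranged from 1034 to 1125 in CON and from 962 to 1076 in OAA. None of the fibroblast, leukocyte, stem cell and enteroendocrine markers reached 1 FPKM, and LGR5 and PTPRC were listed at 0. Of 4 goblet markers, FCGBP had 2.98 FPKM and MUC2 was listed at 0, and 3 endothelial markers summed to 5.52 to 6.90 FPKM over all libraries.

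Ribosomal protein genes had some of the highest FPKM values in the table. Of the 86, 73 had a mean of at least 1 FPKM over the 6 libraries with FPKM; 13 of the top 50 and 39 of the top 100 of 20889 genes were ribosomal protein genes. FPKM is a level per transcript length, so genes can be compared on it, but if the titles hold, these libraries are the antibody part and FPKM reflects pull-down as well as abundance. In bulk RNA, fewer cells of a type and less RNA per cell cannot be told apart. The median of the 73 was 658 FPKM (interquartile range 347 to 1070), with a median coefficient of variation of 4.88% between libraries. The highest and lowest FPKM differed by 225 times, and by 66.6 times without the paralog RPS27L.

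RPS24, a small subunit protein needed for rRNA processing, was the highest at 4059 ± 109 FPKM (SD, n = 6; 3886 to 4167). RPLP0, the stalk base, followed at 3100 ± 138 FPKM, and RPS2, at the mRNA entry site, at 2711 ± 154 FPKM. The range of RPS24 lay above that of RPLP0, whereas RPLP0 and RPS2 overlapped. RPS7, RPL8, RPSA, RPLP1 and RPS20 came next, with means from 2392 to 1880 FPKM, and each overlapped its neighbour in the order. RPS27L, a paralog of RPS27, was the lowest at 18.1 FPKM, and RPL38 had 60.9 FPKM. Across the order, 65 of 72 neighbouring pairs overlapped in range. Median levels were 622 FPKM for the small subunit, 658 for the large subunit and 2184 for the stalk genes, of which RPLP2 was the lowest at 679 FPKM.

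**Figure D1:**
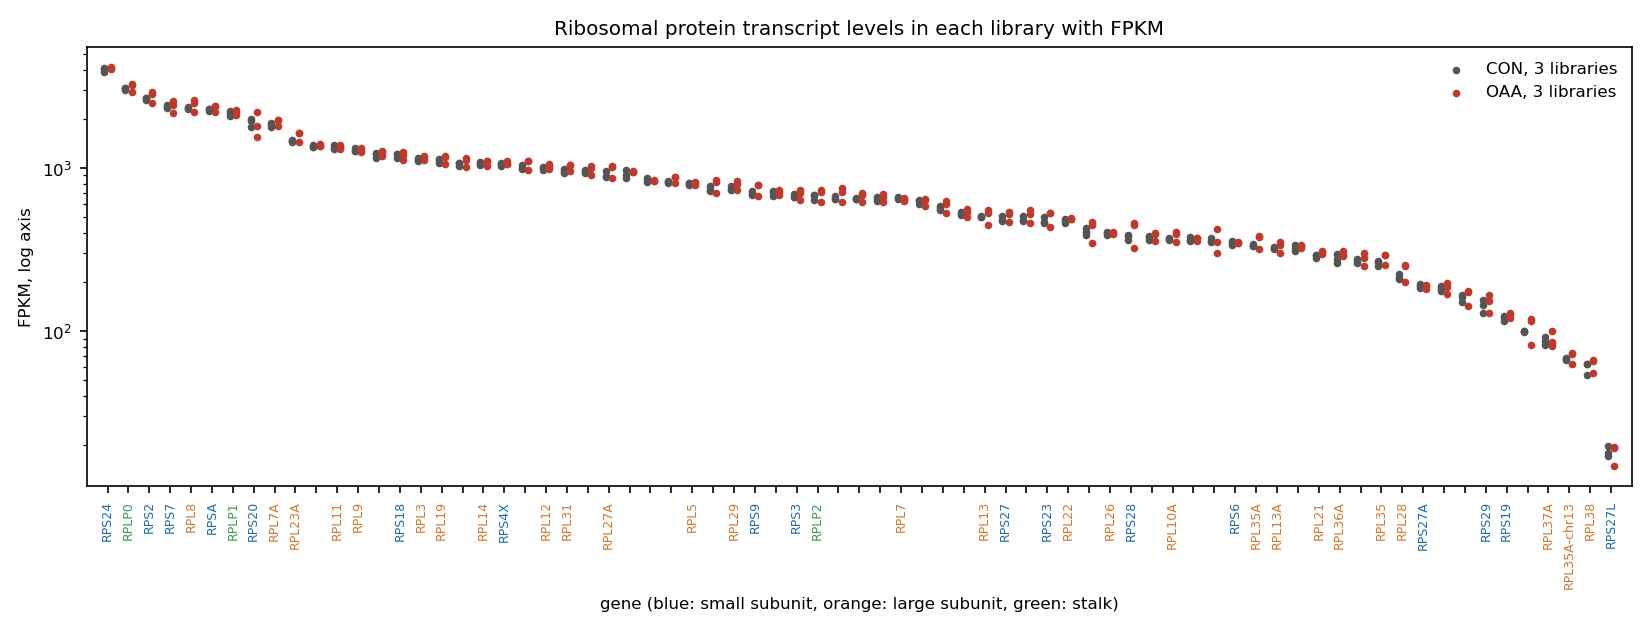
FPKM of the ribosomal protein genes with a mean of at least 1 FPKM, on a log axis, ordered by level, with names, given for genes described in the text, coloured by role. Points are libraries (grey CON, red OAA, 3 each) and the spread within a gene is small beside the 225-fold distance from RPS24 at 4059 FPKM to RPS27L at 18.1 FPKM.

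The genes carried 156 of the 25055 peaks. Of these, 98 were listed under 1 gene and 58 were shared with another gene, and counts per gene were summed over the former only. Such a peak of its own was present for 72 identifiers, 54 of them with 1 peak and 18 with several, up to 5. The 14 without one included RPL12, RPL19, RPL26, RPL29, RPS7, RPS18, RPS19 and RPS23, and also RPL3L, the muscle paralog of RPL3. In these genes 61 of 98 peaks (62.2%) covered the start codon and not the stop codon, against 21.5% of all 21450 peaks under 1 gene. Stop codon peaks made up 10.2% against 24.4%, coding peaks 6.12% against 25.5%, and 3′ UTR peaks 4.08% against 17.8%. Peaks of the group had a median length of 535.5 bp, so a peak that covers a start codon can span several exons.

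With counts in peaks scaled by the TMM method of edgeR, most ribosomal protein genes had more signal in the libraries labelled IP than in those labelled input. Under this scaling the all-gene median was 0.03, so a negative ratio means lower than the typical gene. Unscaled, the ribosomal protein counts were higher in CON input (178761 to 309293 per library) than in CON IP (119125 to 136506). In CON, 61 of 71 genes tested had a lower ratio (edgeR, adjusted p under 0.05; background 37.8% of 9097 genes), and 4 had a higher one (background 38.9%). The median ratio was -1.63 (interquartile range -1.79 to -1.21), against 0.03 (-0.90 to 0.91) for all genes tested. In OAA, 62 were lower (background 38.0%) and 5 higher (background 38.7%), with a median of -1.82. All 61 genes lower in CON were also lower in OAA, and the 4 higher in CON were higher in OAA. The same direction was common among genes of high FPKM. Of 460 other genes with at least 100 FPKM, 373 (81.1%) were lower in CON, with a median of -1.22. Among the 63 ribosomal protein genes with at least 1 FPKM and a symbol that the gene name table does not contradict, 59 were lower, none was higher and the median was -1.68.

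Across the ribosomal protein genes with FPKM of at least 1, the CON ratio had Pearson's r of -0.25 and Spearman's rho of -0.32 with log2 FPKM (n = 65 genes). Over all genes r was -0.44 (n = 7968). Genes are not independent replicates, and the FPKM and the denominator of the ratio come from the same libraries.

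**Figure D2:**
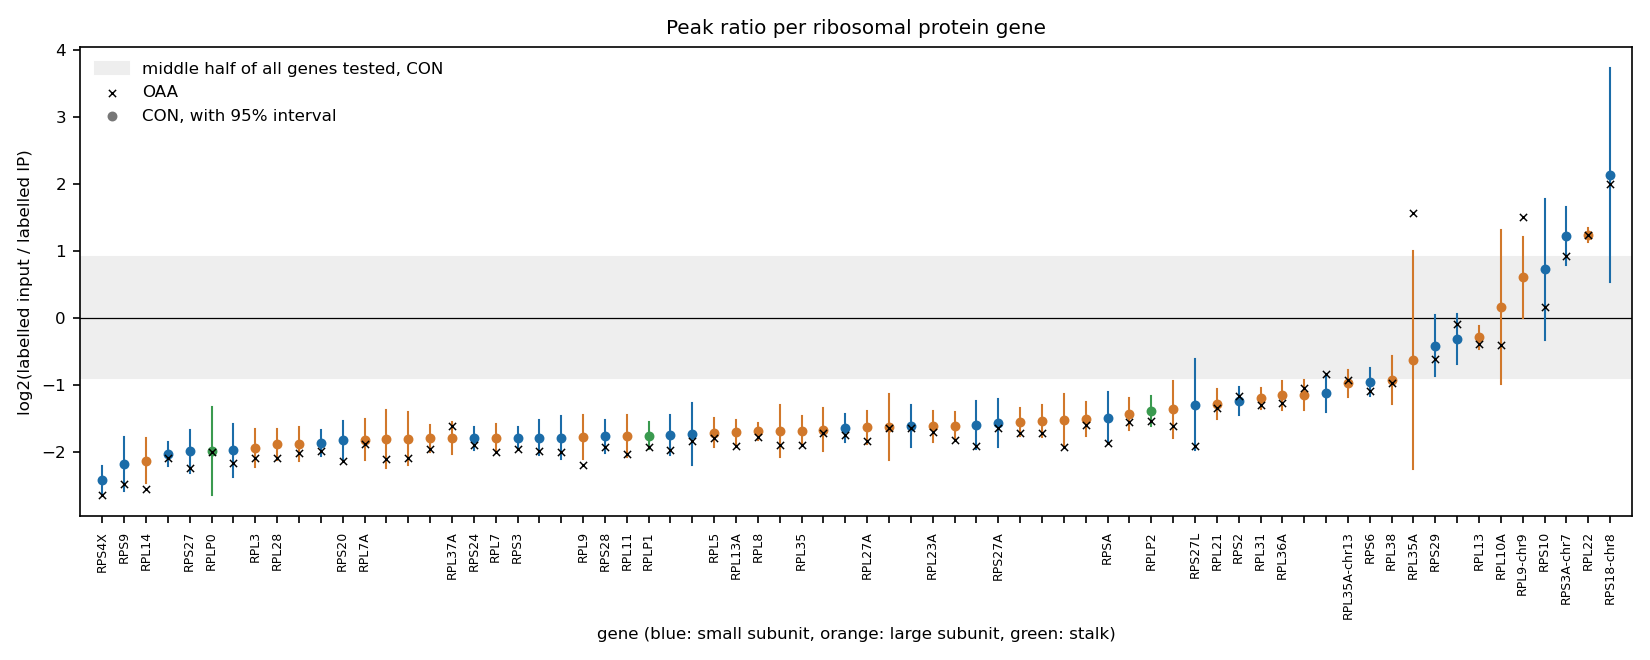
Peak ratio per ribosomal protein gene in CON and OAA, as log2(labelled input / labelled IP); circles are CON with the 95% interval, crosses are OAA, the grey band is the interquartile range of all genes in CON, and RPS24-chr11, at 0 counts in IP, is not drawn; names are given for genes described in the text. Most genes lie near -1.63 in CON and -1.82 in OAA, far below the all-gene median of 0.03. The few above 0 are mainly identifiers under 1 FPKM and the entry deposited as RPL22.

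All 3 stalk genes were lower. RPLP1 (ENSSSCG00000004970, chromosome 1) is an acidic protein of the stalk tip. It had 209, 158 and 162 CPM (counts scaled to library size with TMM factors) in the CON input libraries. In the CON IP libraries it had 566, 581 and 637 CPM. The sets did not overlap, and the ratio was -1.75 ± 0.10 (SE; edgeR adjusted p = 1.25e-13). Its partner RPLP2 had 200, 142 and 150 CPM in CON input and 423, 427 and 437 CPM in CON IP, again without overlap, a ratio of -1.39 ± 0.11. RPLP0 had few reads in its own peak, 11.9, 3.18 and 5.18 CPM in CON input and 21.7, 30.0 and 29.1 CPM in CON IP. Its replicate 1 stood highest among the input libraries, and the ratio was -1.98 ± 0.32 (edgeR adjusted p = 6.06e-06).

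In the small subunit, 23 of 29 genes were lower and 3 higher in CON, with a median of -1.64. RPS4X (ENSSSCG00000012405, chromosome X), the X-linked form of a core small subunit protein, was the lowest of all members. It had 132, 88.5 and 102 CPM in CON input and 575, 559 and 593 CPM in CON IP, and in OAA 94.3, 96.4 and 105 CPM against 640, 623 and 579 CPM. Every IP library was far above every input library. Its ratio was -2.42 ± 0.10 in CON (edgeR adjusted p = 9.97e-16) and -2.64 ± 0.10 in OAA. RPS9, which lines the mRNA entry of the small subunit, had -2.18 ± 0.19, from 31.7, 18.0 and 18.1 CPM in input and 97.7, 99.1 and 111 CPM in IP. Counting also the peaks that RPS9 shares turned its sign, to 0.46, since the 3′ UTR peak listed with LILRB3 had a ratio of 1.72.

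RPS27, at -1.99 ± 0.16, was also among the 6 lowest. RPS3, which also has a DNA repair role, had -1.79 ± 0.08; RPSA, the laminin receptor precursor, -1.49 ± 0.19; and RPS27A, made as a fusion with ubiquitin, -1.57 ± 0.18. RPS6, the phosphorylated target of S6 kinase, stood nearer to 0: it had 89.3, 67.4 and 78.6 CPM in CON input against 150, 147 and 160 CPM in CON IP, a ratio of -0.96 ± 0.10. RPS27L had -1.29 ± 0.33. RPS29 (-0.41 ± 0.22) did not pass in CON; it passed without CON input replicate 1, at -0.76.

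In the large subunit, 35 of 39 genes were lower and 1 higher in CON, with a median of -1.62. RPL14 (ENSSSCG00000011272, chromosome 13) was the lowest: it had 55.3, 28.1 and 33.4 CPM in CON input and 165, 176 and 170 CPM in CON IP, a ratio of -2.13 ± 0.16 in CON and -2.54 ± 0.17 in OAA. RPL8 (ENSSSCG00000029830, chromosome 4), close to the peptidyl transferase centre, had the smallest adjusted p, 9.91e-17 by edgeR in CON, with a ratio of -1.69 ± 0.06. Its input libraries held 1055, 876 and 908 CPM and its IP libraries 3115, 2965 and 3087 CPM. RPL3, which shapes the same centre, had -1.93 ± 0.14. RPL5 and RPL11, which carry the 5S rRNA and bind MDM2 when free, had -1.71 ± 0.10 and -1.76 ± 0.15. RPL13 was only a little below 0, at -0.29 ± 0.08 (edgeR adjusted p = 0.00329). RPL10A (0.17 ± 0.55) and RPL35A (-0.63 ± 0.78) did not pass, and their own peaks held under 4 CPM in each library although their levels were 375 and 347 FPKM; with its shared peaks RPL10A had -1.15.

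The identifiers above 0 were few and mostly uncertain in name or level. Of the 6 tested identifiers under 1 FPKM, 1 was lower, 3 were higher and 2 did not pass in CON. The lower one was RPL14-chr1, with 88.9, 78.8 and 67.3 CPM in CON input and 182, 165 and 175 CPM in CON IP. Its FPKM was 0 in the same CON IP libraries. RPL14 itself had 165, 176 and 170 CPM in CON IP and a mean of 1070 FPKM. Reads of near-identical copies can be split or assigned to the wrong copy, and the counting rule is not given in the sources used here. RPS3A-chr7, listed at 0 FPKM in every library, had 23.5, 22.9 and 19.7 CPM in CON input against 9.31, 7.88 and 11.3 CPM in CON IP, a ratio of 1.22 ± 0.21. RPS24-chr11 had 161 counts in CON input and 0 in CON IP, at least 13.2-fold higher against a floor of 3 counts over the group, and 120 against 0 in OAA, at least 10.7-fold. RPS18-chr8 had 86 against 4 counts in CON, a scaled ratio of 5.27 (95% counting interval 1.99 to 19.8); its edgeR call was lost without CON IP replicate 1, with a log2 ratio of 1.57. RPL9-chr9 (0.61 ± 0.29) and RPS10 on chromosome Y (0.73 ± 0.51) did not pass in CON; RPL9-chr9 was higher in OAA, at 1.51 ± 0.32.

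The identifier deposited as RPL22 was the only entry of at least 1 FPKM with a called higher ratio in CON. Its peaks had 3706, 3555 and 3598 CPM in CON input against 1588, 1492 and 1537 CPM in CON IP, and the ratio was 1.23 ± 0.05 in CON and 1.24 ± 0.05 in OAA. The identifier, ENSSSCG00000003369, is RPL22 in the deposited table but ICMT in the gene name table. In RefSeq Sscrofa11.1, RPL22 and ICMT are separate genes with RNF207 between them. Of the 5 peaks under this identifier alone, 2 lie beyond the peaks it shares with RNF207, on the side of ICMT, at chr6:67118185-67118959 (3′ UTR) and chr6:67119235-67120109 (stop codon); the genome build is not given in the sources used here. These 2 held 97.2% of the identifier's CON input counts and had ratios of 1.09 ± 0.06 and 1.93 ± 0.06. Of the 3 peaks on the other side, at chr6:67092517-67102057, the coding peak had -1.31 ± 0.11, the start codon peak 0.06 ± 0.23 and a stop codon peak 1.41 ± 0.17. The entry deposited as RPL22 made up 24.9% of the counts summed over the group in CON input and 4.41% in CON IP. Most of its counts lay in the 2 peaks on the side of ICMT, so the share cannot be given to RPL22. The other contradicted identifier, deposited as RPL13A and named FLT3LG in the gene name table, had -1.71 ± 0.09; RefSeq lists FLT3LG as a synonym of RPL13A.

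Taken peak by peak, most of the lower ratios belonged to start codon and coding peaks. In CON, 70 of 96 peaks tested were lower (edgeR; background 34.2% of 24145 peaks) and 12 higher (background 33.9%). The OAA counts were also 70 (background 34.4%) and 12 (background 34.1%). Of 60 start codon peaks, 53 were lower and 1 higher (background 34.4% and 25% of all 4444 start codon peaks under 1 gene). Their median was -1.43 against -0.16 for all. All 6 coding peaks were lower (background 35.9% of all coding peaks), with a median of -1.44 against -0.04. Of 12 peaks in the 5′ UTR, 3 were lower and 4 higher (background 17.7% and 35.6%), with a median of 0.50 (0.48 for all such peaks). Of 9 stop codon peaks, 3 were lower and 5 higher (background 31.5% and 46.6%), with a median of 1.37 (0.33 for all). Of 5 peaks over both start and stop codon, 3 were lower and 1 higher (background 25.1% and 61.1%), with a median of -0.92 (0.91 for all). Of 4 peaks in the 3′ UTR, 2 were lower and 1 higher (background 40.5% and 26.8%), with a median of -0.33 (-0.26 for all). With library size as the only scaling, the median over all peaks in CON went from 0.03 to -0.28 and the share of lower ratios among called peaks from 50.2% to 60.7%. Under it, 72 peaks of these genes were lower and 9 higher, with a median of -1.64. Of all 24145 peaks, 10068 were then lower and 6516 higher.

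**Figure D3:**
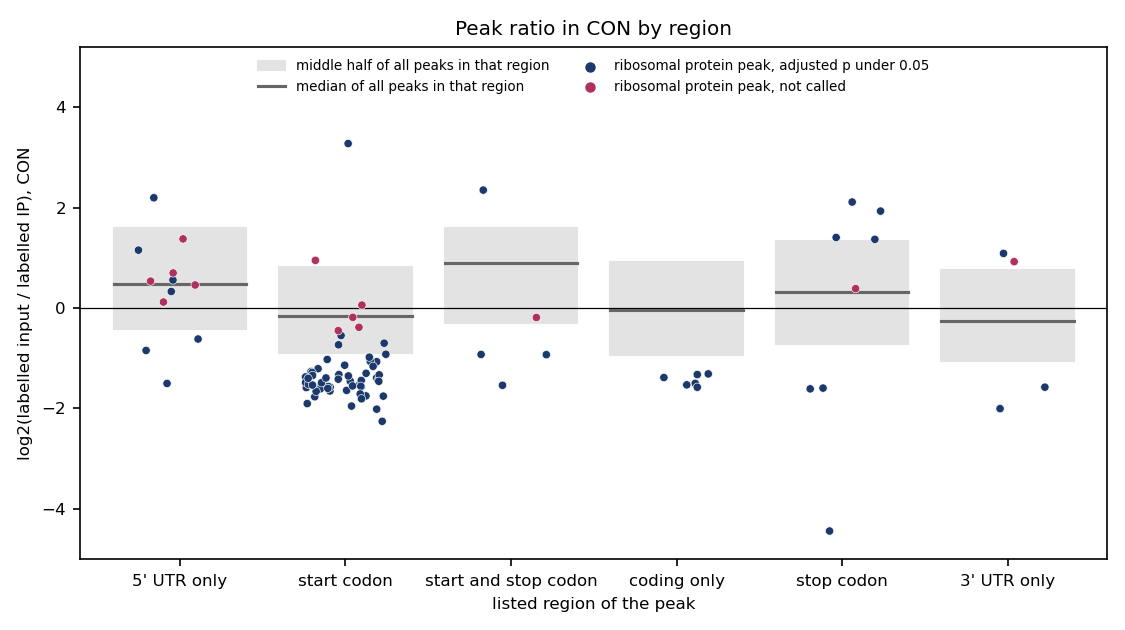
Peak ratio in CON (log2 of labelled input over labelled IP) of each ribosomal protein peak listed under 1 gene, by the transcript region it covers, beside the median (line) and interquartile range (grey) of all peaks of that region; the RPS24-chr11 peak, at 0 counts in IP, is not drawn. Start codon and coding peaks lie mostly below the all-peak medians of -0.16 and -0.04, whereas 5′ UTR and stop codon peaks spread over both sides of 0.

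RPS24 (ENSSSCG00000039544) had peaks of very different ratio. Its stop codon peak, chr14:80476285-80476409, had the lowest ratio of any peak of its own among these genes, with 3.37, 5.12 and 4.06 CPM in CON input and 92.9, 90.9 and 85.8 CPM in CON IP. The IP values were nearly equal and far above the input values, and the ratio was -4.44 ± 0.15 in CON (edgeR adjusted p = 5.86e-22) and -4.49 in OAA. The adjacent start codon peak at chr14:80475770-80476084 had -1.44 ± 0.12 and the 3′ UTR peak at chr14:80480835-80480884 had -1.58 ± 0.07. A second start codon peak, chr14:80473889-80474013, went the other way, with 124 counts in CON input against 3 in CON IP, a scaled ratio of 10.1 (95% counting interval 3.39 to 49.8).

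RPL13 (ENSSSCG00000024974) also had peaks on both sides of 0. Its start codon peak, chr6:412771-413327, had 188, 100.3 and 104 CPM in CON input and 343, 355 and 404 CPM in CON IP, a ratio of -1.49 ± 0.14. Its stop codon peak, chr6:410834-411058, had 361, 356 and 339 CPM in input and 131, 136 and 142 CPM in IP, a ratio of 1.37 ± 0.07. The order of input and IP was opposite in the peaks, and each peak's library sets were separate. RPL35A-chr13 had -2.01 ± 0.13 at the start codon and 0.56 ± 0.13 in the 5′ UTR. RPS2 had -1.02 ± 0.09 at the start codon and 1.15 ± 0.39 in the 5′ UTR; the latter did not pass under library size alone (0.85) or without CON IP replicate 2 (0.97). RPL27A had -1.53 ± 0.12 in its coding peak and 0.33 ± 0.13 in the 5′ UTR, the latter not passing under library size alone (0.03) or without CON IP replicate 2 (0.18).

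Other genes with peaks on both sides of 0 had a low-count or uncertain partner. RPL7A had -1.61 ± 0.14 in its main start codon peak and 0.95 ± 0.81 in a short one. RPL31 had -0.98 ± 0.08 at the start codon, and its 5′ UTR peaks had 0.12 ± 0.58 and 0.54 ± 0.65. RPS3A-chr7 had 2.11 ± 0.26 at the stop codon and -0.45 ± 0.48 at the start codon. Stop codon peaks were not always higher: those of RPL8 (-1.59 ± 0.06) and RPS3 (-1.61 ± 0.07) were lower, as were the start codon peaks of the same genes (-0.55 ± 0.15 and -1.35 ± 0.12). The other lowest peaks were those of RPS4X at the start codon (-2.26 ± 0.10) and in the 3′ UTR (-2.00 ± 0.12), and the start codon peaks of RPS9 (-1.95 ± 0.18) and RPL14 (-1.90 ± 0.15).

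Some of the strongest signal lay in shared peaks, which cannot be given to 1 gene. The 5′ UTR peak listed under RPL12 and ZNF79, chr1:267964640-267964864, had 2037 counts in CON input and 24096 in CON IP, a ratio of -5.61 ± 0.16. A stop codon peak of RPL7A shared with an unnamed gene had -3.45 ± 0.09. Shared peaks of RPL29 with ACY1 (coding, -3.21), RPL26 with NDEL1 (start codon, -3.03) and RPS27 with NUP210L (-2.96) were also low.

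The treatment comparison asked whether 25 µM OAA for 24 h moved these genes. No ribosomal protein gene passed in any of the 4 comparisons: the labelled input counts (72 tested, background 0.00%), the labelled IP counts (67 tested, background 0.00%), the change of the peak ratio (71 tested, background 0.00%) and FPKM (73 tested, background 0.00%). At an unadjusted p under 0.05, edgeR gave 1 gene in input (4.87% of all genes), 1 in IP (3.65%) and 0 in the change of the ratio (3.73%), and limma gave 0 in FPKM (3.31%). DESeq2 also called 0 in each of the count comparisons. Of the 96 single peaks, 0 passed for the change of the ratio (background 0.00%), and 2 had an unadjusted p under 0.05 by edgeR (4.46% of all peaks). The median 95% interval reached 0.28 to either side in input, 0.18 in IP, 0.39 for the change of the ratio and 0.11 in FPKM, on the log2 scale.

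The 1 gene in input was RPS3A-chr7, with OAA minus CON of -0.32, and the 1 in IP was RPL9-chr9, with -0.94; both are identifiers under 1 FPKM. Next by p in input were RPL7 (-0.22), RPL14 (-0.37), RPS2 (0.16), RPL37A (0.20) and RPS10 (-0.76). In IP they included RPS3 (0.10), RPL35 (0.15), RPS27L (0.47) and RPL27A (0.12). In FPKM, on the log2(FPKM + 1) scale, the smallest p belonged to RPL36A (0.10), RPL23A (0.09), RPL21 (0.07), RPL31 (0.08), RPL35 (0.10) and RPL28 (0.13). For the change of the ratio they were RPL9-chr9 (0.90), RPL9 (-0.42), RPL35A (2.19), RPL14 (-0.42), RPL13A (-0.21) and RPS20 (-0.31).

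Single libraries carried shared shifts across the group. In labelled input, 69 of 72 genes of CON replicate 1 lay above the mean of the other CON libraries, with a median difference of 0.47, against 49.7% of all genes. In labelled IP, CON replicate 1 had 7 of 67 genes above the mean of the other CON libraries (median -0.11; all genes 50.6%). CON replicate 3 had 63 (median 0.13, all genes 51.0%). Likewise, 65 of 67 genes of OAA replicate 1 lay above the mean of the other OAA libraries (median 0.22, all genes 51.5%). In OAA replicate 3 only 5 did (median -0.29, all genes 49.1%). The FPKM of the same libraries showed 68 of 73 above in OAA replicate 1 (median 0.10, all genes 53.9%). In OAA replicate 3 it showed 7 of 73 (median -0.16, all genes 44.3%). The median differences that follow are given with and without several of these libraries.

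The median difference over the genes was -0.09 in input, with 59 of 72 below 0, against -0.0042 and 51.2% below 0 for all genes. Without CON input replicate 1 it was 0.11, with 61 of 72 above 0; without CON input replicate 2 or 3 it was -0.18 or -0.16. In IP the median was 0.06, with 48 of 67 above 0, against 0.0026 and 49.2% below 0 for all genes. The IP median of the ribosomal protein genes was -0.01 without OAA IP replicate 1, 0.02 without CON IP replicate 1 and 0.10 without CON IP replicate 3. Without OAA IP replicate 3 it was 0.14, and 11 of 67 genes passed, all higher in OAA, in a fit that called 44 of 8247 genes (0.534%). They included RPS28 (0.26), RPLP2 (0.24), RPL35 (0.24), RPL28 (0.23), RPL27A (0.21), RPL23A (0.21), RPS2 (0.21), RPL13A (0.19), RPS20 (0.18) and RPS3 (0.16). The change of the peak ratio had a median of -0.16, with 62 of 71 below 0, against -0.0049 and 51.1% below 0 for all genes. For the ribosomal protein genes it was 0.04 without CON input replicate 1 and -0.25 without CON input replicate 2. It was -0.08 without OAA IP replicate 1 and -0.23 without OAA IP replicate 3. In FPKM, 64 of 73 genes lay above 0, with a median of 0.04, against -0.01 and 57.0% below 0 for all genes. The FPKM median of the ribosomal protein genes was 0.0034 without OAA IP replicate 1. Without OAA IP replicate 3 it was 0.09, with 66 of 73 above 0.

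**Figure D4:**
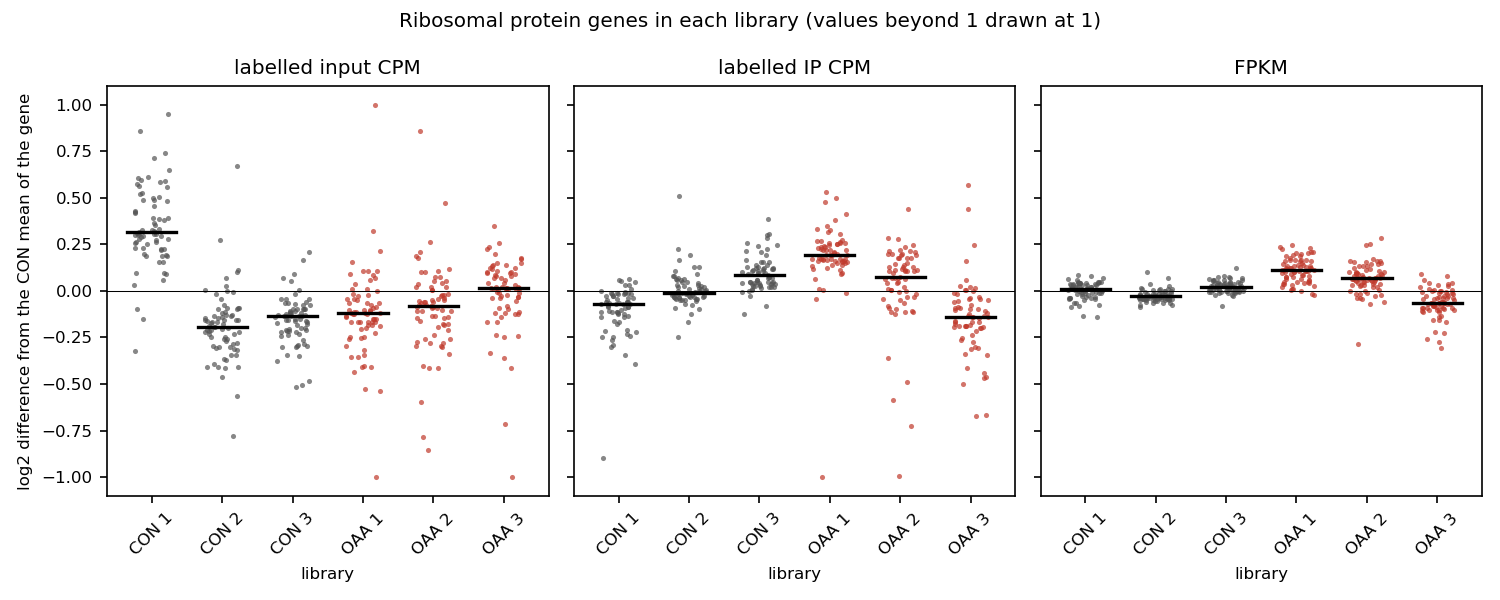
Log2 level of each ribosomal protein gene (point) in each library minus its CON mean, for labelled input CPM, labelled IP CPM and FPKM, with the median over the genes as a bar and values beyond 1 drawn at 1. The median of CON input replicate 1 lies at 0.31, and those of OAA IP replicates 1 and 3 lie at 0.19 and -0.14, on either side of the CON mean.

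Ribosomal protein peaks held 1.63%, 1.25% and 1.28% of the counts in peaks under 1 gene in the CON input libraries and 1.32%, 1.34% and 1.39% in the OAA input libraries. CON replicate 1 was above every OAA library and the other CON libraries were below every OAA library, so the CON range enclosed the OAA range. In IP they held 3.51%, 3.62% and 3.80% in CON and 4.08%, 3.91% and 3.41% in OAA, so the OAA libraries enclosed the CON range. In FPKM the share of the total was 13.1% ± 0.186 in CON and 13.4% ± 0.561 in OAA (SD, n = 3). Leaving out the 2 contradicted identifiers gave mean shares of 0.977% and 0.947% in CON and OAA input, and 3.27% and 3.41% in IP.

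In the authors' deposited table, the CON log2 ratio of the peaks of these genes had a median of 2.53 against 3.97 for all peaks, and the OAA ratio 2.45 against 4.04. The deposited CON ratio was below 0 for 1 of the 98 peaks of these genes and for 35 of 24931 peaks in all. Under the TMM scaling used above, 74 of 96 peaks of these genes were below 0 in CON. Their median was -1.34 against 0.03 for all peaks, so it lay below that of all peaks on both scales. The deposited ratios are on the authors' own scale, so the sign of a ratio depends on the scale. The cause of the difference was not tested. In the authors' deposited table the treatment difference had a p under 0.05 for 1 of the 98 peaks (p = 0.0464) and for 2.69% of all, and the smallest adjusted p of a peak of these genes there was 0.999802.

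The other genes of the translation machinery were counted by list. The background for the CON ratio was 37.8% lower and 38.9% higher of 9097 genes. Among 6 genes named as elongation factors, 5 had a lower CON ratio and 1 a higher one, with a median of -1.68. EEF1E1, counted by its name, had -2.14, and EEF1G had -1.77. EEF1A1, which brings aminoacyl-tRNA to the ribosome, had -1.70. Of 21 initiation factors tested, 15 were lower and 5 higher (median -1.22), with the helicase EIF4A1 at -2.14 and the cap-binding EIF4E at -1.67. Ribosome biogenesis genes had 26 lower and 9 higher of 45 (median -0.77), with RRS1 at 1.45 and NOP16 at -1.79. Mitochondrial ribosomal protein genes had 32 lower and 6 higher of 50 (median -0.82). Translation control genes had 3 lower and 3 higher of 10 (median 0.12), with EIF4EBP1 at -1.73 and MYC at 0.69. RACK1, a small subunit scaffold with another kind of symbol, had -2.02 and 1061 FPKM; FAU, which encodes RPS30, had 105 FPKM and no tested peak. The paralogs RPL36AL and RPL7L1 had 1.40 and 0.04. No gene of these lists passed in a treatment comparison.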

How the data were processed

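Counts of reads per peak were deposited by the authors as whole numbers for 12 libraries, with 0 columns unmatched to a sample. The deposited peak table gives −log10 values, a score, p-values and log2 ratios per peak as the authors' own, and the deposited FPKM table covers the 6 libraries labelled IP. HISAT2 and Bowtie2 are named in the submitters' processing notes; no build, counter or peak caller is given in the sources used here.

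Counts were summed per gene over peaks listed under 1 gene and tested with edgeR 4.0.16 (R 4.3.3; TMM, filterByExpr, quasi-likelihood F test), the ratios over all 12 libraries and the treatment within the 6 libraries of a label. log2(FPKM + 1) was tested with limma 3.58.1 on genes with at least 1 FPKM in 3 libraries. p-values were adjusted over all features by Benjamini-Hochberg, with a threshold of 0.05. DESeq2 1.42.0 was an alternative, as were library size scaling, no filter, the replicate number as a block, all peaks, and leaving out each library. The count over members with at least 1 FPKM and an uncontradicted symbol was added after seeing the data. Fits were tested on simulated data.

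Members, lists and rules were chosen with earlier results of these data known. Named were the 6 largest called differences of at least 5 CPM per direction, the 6 smallest p where under 3 were called, all members of opposite sign, and fixed genes per role; up to 3 genes per other list. Deviations of same-numbered libraries correlated between -0.25 and 0.12, so the numbers were not taken to pair samples. Counting intervals (95%) and floors (3 counts) cover counting error only. Some genes named by the rule are not reported here.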

Additional observations from a re-analysis of the deposited data

How the results depend on the processing

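Of 116 alternatives for counts of called members, 115 stayed within 1.5 times of the main count. The exception was the treatment difference in labelled IP without OAA IP replicate 3, with 11 called (range 0 to 11 over the left-out libraries). Called members were 59 to 77 for the CON ratio, 60 to 79 for the OAA ratio, 72 to 83 and 69 to 84 for the peaks. With the replicate number as a block, 66 members were called for the CON ratio, 66 for the OAA ratio and 0 for each treatment comparison; the block ended 1 named call, that of RPS18-chr8 in OAA, and added that of RPS29 in CON (-0.47). Of 1444 alternatives for single named genes and peaks, 1405 kept direction and call and 16 turned the sign. With every peak that lists the gene, RPL10A had -1.15 and RPS9 0.46 in CON and 0.55 in OAA. Library size alone gave the RPL31 5′ UTR peak -0.18 in CON and -0.0114 in OAA, the RPL22 start codon peak -0.24 and -0.17, and the RPL27A 5′ UTR peak -0.0367 in OAA. Over the left-out libraries, values ranged across 0 for RPL10A in CON (-0.22 to 0.49), RPS10 in OAA (-0.23 to 0.53), the RPL31 peak (-0.0424 to 0.32 in CON, -0.21 to 0.64 in OAA) and the RPL22 start codon peak in CON (-0.0831 to 0.37). None of these values but those of RPL10A and RPS9 with every peak passed the threshold, and the cause was not tested. Depth limits the peaks under 5 CPM, including those of RPL10A, RPL35A and RPS10.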
